A study of Homo sapiens with 4 samples.

Results

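The mitochondrially encoded genes were examined in parental SUM159 cells and in 3 NOS2KO clones of that line. The members were all rows of the deposited count files placed on chromosome MT, which gave 35 of 57500 genes, namely 13 mRNAs and 22 tRNAs. The 2 mitochondrial ribosomal RNA genes were not analysed here. SUM159 is a triple-negative breast cancer cell line of metaplastic type. The parental control was 1 library, and clones 1, 5 and 6 gave 1 library each. The clones came from SUM159 cells that received a double nickase plasmid directed at NOS2, the gene of the inducible nitric oxide synthase iNOS. They were kept after puromycin and by their iNOS protein and nitrite/nitrate levels, whereas the labels name no such plasmid, selection or cloning for the parental cells. Each library therefore stands for 1 clone or 1 culture, and all 3 clones are compared with the same parental library.

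The human mitochondrial genome is a small circle that is transcribed from both strands as long precursors. Its mRNAs encode core subunits of the respiratory chain and of ATP synthase, and its tRNAs, most of which lie between the mRNAs, serve the translation of those mRNAs inside the organelle. The tRNAs are cut out of the precursor by endonucleases, which frees the mRNAs, and most of these then receive a short poly(A) tail. The enzymes that copy the genome and that make, process and degrade its RNA, and the proteins of the mitochondrial ribosome, are all encoded in the nucleus.

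Gene counts summed to 90467395 for the parental cells, and to 122171287, 101337366 and 97362293 for the clones, which are listed throughout in the order clone 1, the library labelled clone 5, clone 6. NOS2 had 2 counts in the parental library and 3, 18 and 1 in the clones. Its level was at or under a floor of 3 counts everywhere but in the library labelled clone 5, where it was 0.169 CPM. The clones were selected by iNOS protein and nitrite/nitrate, and these few RNA counts do not settle whether iNOS was lost. Because NOS2 passed the floor of 3 counts only in the library labelled clone 5, the wording "labelled" is kept. Results are also given without that library. Mesenchymal markers were abundant in all 4 libraries, with VIM between 1655 and 3855 CPM (counts scaled to a common library size) and CD44 between 454 and 827 CPM. VIM, CD44 and SPARC (624 to 4724 CPM) were lowest in the parental library. ZEB1 was highest there, at 83.7 CPM against 39.5 to 57.8 CPM in the clones. EPCAM, PGR and ESR1 did not pass 0.741 CPM, whereas KRT18 lay between 303 and 467 CPM. ERBB2 was at 48.3 CPM in the parental library and 55.6, 106 and 99.1 CPM in the clones. FOXA1 was at 2.69 CPM and 4.62, 24.1 and 22.1 CPM, and GATA3 at 10.5 CPM and 5.37, 4.46 and 1.61 CPM. The leukocyte marker PTPRC was at 4.45 CPM in the parental library and at 68.4, 105 and 41.7 CPM in the clones. The endothelial marker PECAM1 was at 16.1 CPM in the parental library and 13.9, 7.06 and 8.64 CPM in the clones. The part of these differences in the results below was not tested.

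The 13 mRNAs are shown first by how their genes end, since the oligo(dT) beads used for these libraries bind poly(A) and several of these reading frames depend on their tail to be complete. The last 15 bases of each gene are given 5′ to 3′ on the coding strand, from the GENCODE release 29 transcripts on GRCh38, with the stop codon, or the part of one that the gene encodes, in capitals.
MT-ND1: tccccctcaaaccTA
MT-ND2: tactaataatcttaT
MT-CO3: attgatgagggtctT
MT-ND3: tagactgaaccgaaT
MT-ND4: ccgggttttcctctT
MT-CYB: tactcaaatgggccT
MT-CO1: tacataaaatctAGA
MT-CO2: gtatttaccctaTAG
MT-ATP8: cccccacaatccTAG
MT-ATP6: cacgacaacacaTAA
MT-ND4L: ctactccaatgcTAA
MT-ND5: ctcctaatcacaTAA
MT-ND6: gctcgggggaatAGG
The first 6 genes end in T or TA, and the missing A residues of their stop codon are added with the poly(A) tail. All 6 are followed on the next base by a tRNA gene of the same strand, which are MT-TI, MT-TW, MT-TG, MT-TR, MT-TH and MT-TT in the order of MT-ND1, MT-ND2, MT-CO3, MT-ND3, MT-ND4 and MT-CYB. The fitted log2 fold change of the clones over the parental library spanned 0.24 to 0.78 (median 0.42) in these 6 mRNAs and 0.23 to 0.50 (median 0.41) in the 7 mRNAs with a complete stop codon. The ranges overlapped, so the kind of ending did not separate the mRNAs.

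The question of the design was how SUM159 cells with a disrupted NOS2 gene differ in expression from their parental cells. Mitochondrially encoded genes took a larger share of the counts in every NOS2KO clone than in the parental library. The parental share was 1.41% (exact binomial 95% interval 1.40 to 1.41), and those of the clones were 2.06%, 1.68% and 1.98%. The clones averaged 1.91% ± 0.20 (SD, n = 3), and the single clones stood at 1.47, 1.20 and 1.41 times the parental share. The parental library lay below all 3 clones by more than their SD, but an exact two-sided permutation test over the 4 libraries gave p = 0.25, the smallest value that 1 library against 3 allows. Without the library labelled clone 5 the mean log2 ratio of the share was 0.52, against 0.44 with it. In bulk RNA, a change in the number of cells of a kind and a change in the RNA per cell cannot be told apart.

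In the fit across all genes, no mitochondrially encoded gene passed a test of the clones against the parental library. All 35 passed the filter on low counts, and 0 of 35 had an adjusted p under 0.05 by edgeR's quasi-likelihood test, against 0.00444% of the 22511 genes tested, which is 1 gene. At an unadjusted p under 0.05 the count was also 0 of 35, where 11.5% of all tested genes passed. The study plots genes by a p under 0.05 and a log2 fold change beyond 1 in either direction, names a Wald test and does not say whether p was adjusted. With edgeR's unadjusted p in its place, called the criterion below, these thresholds were met by 0 of 35 members and by 9.58% of all tested genes, 4.24% higher and 5.34% lower in the clones. DESeq2's Wald test likewise gave 0 of 35 at an adjusted p under 0.05 and 0 of 35 at an unadjusted p under 0.05, with the adjusted value not given for 4 of them. Over all genes that test passed 6.18% of those with an adjusted value and 14.3% unadjusted. The lowest adjusted p among the members was 0.471 by edgeR, for MT-TT, and 0.309 by DESeq2.

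The direction of the fitted values was nonetheless largely one-sided. The fit placed 33 of 35 members higher in the clones and 2 lower, the low-count tRNAs MT-TM and MT-TR. In CPM, 23 members lay above the parental library in all 3 clones, which is 10 of 13 mRNAs and 13 of 22 tRNAs, while 28.6% of all tested genes did so. No member lay below it in all 3, where 30.5% of all tested genes did. The median log2 fold change was 0.41 over the 13 mRNAs and 0.59 over the 22 tRNAs, against 0.10 over all genes tested. These members share transcripts and a genome, so their common direction is not a set of independent observations.

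The size of the difference depended on the clone. The median log2 ratio of the 13 mRNAs to the parental library was 0.66 for clone 1 and 0.41 for clone 6, but 0.12 for the library labelled clone 5. All 13 mRNAs were higher in clone 1 and in clone 6. In the library labelled clone 5, 10 were higher, and MT-ND1, MT-ND2 and MT-ND6 were below the parental level. Of the 20 members that reached 10 CPM in either library of a pair, those past a log2 ratio of 1 were MT-CO3 and MT-CYB in clone 1, none in the library labelled clone 5, and MT-TN and MT-TC in clone 6, where 22.6%, 23.1% and 23% of all genes at that level passed it. These 3 comparisons share the parental library.

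**Figure D1:**
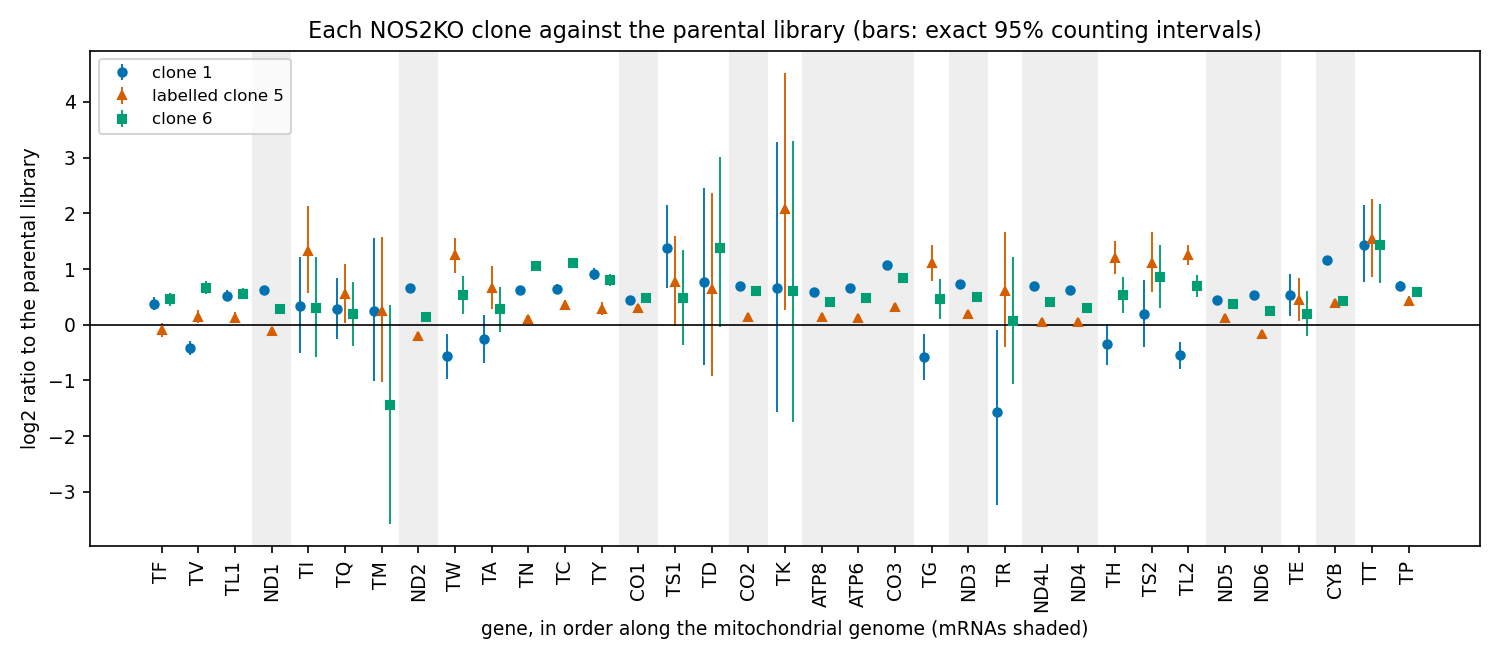
The log2 ratio of CPM in each NOS2KO clone to the parental library (y axis) is plotted for the 35 mitochondrially encoded genes in their order along the mitochondrial genome (x axis), with mRNAs shaded and bars for exact 95% intervals of counting error alone. The mRNAs of clone 1 and clone 6 lie above 0 throughout, those of the library labelled clone 5 lie nearer to 0, and wide bars mark tRNAs with few counts.

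Complex I, NADH dehydrogenase, passes electrons from NADH to ubiquinone, and 7 of its core subunits are mitochondrially encoded. Together their mRNAs took 0.420% of the counts in the parental library and 0.593%, 0.441% and 0.525% in the clones. MT-ND1 (ENSG00000198888, chrMT:3307-4262 of GRCh38), a subunit next to the ubiquinone site, was at 699.6 CPM in the parental library and 1075, 649 and 848 CPM in the clones. The parental value lay inside the range of the clones, below clone 1 and clone 6 and above the library labelled clone 5. MT-ND2 (chrMT:4470-5511), a subunit of the proton-pumping membrane arm, had the same order, with 585 CPM in the parental library and 927, 506 and 646 CPM in the clones. Its fitted log2 fold change of 0.24 (SE 0.45) turned to -0.020 without clone 1, so its sign rested on that clone.

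MT-ND4 (chrMT:10760-12137), MT-ND5 (chrMT:12337-14148) and MT-ND4L (chrMT:10470-10766) also encode parts of the membrane arm. MT-ND4 was at 1208 CPM in the parental library and 1849, 1255 and 1496 CPM in the clones, and MT-ND5 at 971 CPM and 1316, 1053 and 1253 CPM. MT-ND4L was at 259.9 CPM in the parental library and 419, 269.8 and 346 CPM in the clones. For all 3 mRNAs the parental library was lowest and clone 1 highest, and the library labelled clone 5 was closest to the parental one.

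MT-ND3 (chrMT:10059-10404), the short subunit at the joint of the arms, was at 114 CPM in the parental library and 190.1, 130.3 and 160.4 CPM in the clones, which averaged 160.3 ± 29.9 CPM (SD, n = 3). It too was lowest in the parental library, and its log2 fold change of 0.49 (SE 0.33, edgeR adjusted p = 0.614) was the highest of complex I with a 95% interval from -0.38 to 1.36. MT-ND6 (chrMT:14149-14673) is the only mRNA encoded on the opposite strand, read from the light-strand transcript. It was at 370.4 CPM in the parental library and 537, 331 and 439 CPM in the clones, and its log2 fold change of 0.23 (SE 0.39) was the lowest of the 13. Without clone 1 it was 0.058, and MT-ND2 was then lower. The 12 mRNAs of the other strand together took 1.36 times the parental share of counts on average, and MT-ND6 took 1.17 times. The strand setting of the counting is not given, so counts at MT-ND6 may include RNA of the other strand. These values are therefore not a comparison of the strands.

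Complex III, the cytochrome bc1 complex, has 1 mitochondrially encoded subunit, cytochrome b. Its mRNA MT-CYB (ENSG00000198727, chrMT:14747-15887) was at 632 CPM in the parental library and 1414, 833 and 848 CPM in the clones. The groups did not overlap, and clone 1 stood apart from the other two clones, which nearly coincided. The fitted log2 fold change was 0.71 (SE 0.45, edgeR adjusted p = 0.598, 95% interval -0.48 to 1.89).

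Complex IV, cytochrome c oxidase, reduces oxygen to water, and its 3 largest subunits are mitochondrially encoded. MT-CO1 (ENSG00000198804, chrMT:5904-7445), the catalytic subunit with the heme and copper centre, was at 4917 CPM in the parental library and 6724, 6029 and 6819 CPM in the clones. The parental library lay below all 3 clones, as for 28.6% of all genes tested, and the clones lay close together, at 6524 ± 431 CPM (SD, n = 3). Its log2 fold change was 0.41 (SE 0.37, edgeR adjusted p = 0.705). MT-CO2 (chrMT:7586-8269), which accepts electrons from cytochrome c, was at 1172 CPM in the parental library and 1901, 1286 and 1779 CPM in the clones, again with the library labelled clone 5 nearest to the parental value. MT-CO3 (ENSG00000198938, chrMT:9207-9990), a structural subunit, was at 1266 CPM in the parental library and 2677, 1586 and 2262 CPM in the clones. Its log2 fold change of 0.78 (SE 0.44, edgeR adjusted p = 0.555, 95% interval -0.36 to 1.92) was the highest of the 13 mRNAs, and the parental library lay below every clone.

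Complex V, ATP synthase, has 2 mitochondrially encoded subunits of its membrane part. MT-ATP6 (ENSG00000198899, chrMT:8527-9207), which forms the proton path, was at 1387 CPM in the parental library and 2194, 1511 and 1928 CPM in the clones. MT-ATP8 (chrMT:8366-8572) was at 311 CPM and 469, 343 and 411 CPM. The parental library was lowest for both, followed by the library labelled clone 5, clone 6 and clone 1. Their log2 fold changes were 0.44 (SE 0.38) and 0.39 (SE 0.33).

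Compared per length, the order of the 13 mRNAs was much alike in the 4 libraries. MT-CO1 had the highest level in each, from 3189 CPM per kilobase in the parental library to 4422 in clone 6, and MT-ND3 the lowest, from 330.0 in the parental library to 549.5 in clone 1. The ratio of the highest to the lowest was 9.66 in the parental library and 7.94, 10.4 and 9.54 in the clones. Spearman's rho of the levels per kilobase with the parental library was 0.945, 0.951 and 0.962 over the 13 mRNAs, which share each library and its depth and are not independent. The mRNAs of complexes IV and V lay above all those of complexes I and III in every library. This order holds for reads from poly(A)-enriched RNA and is not an order of synthesis.

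**Figure D2:**
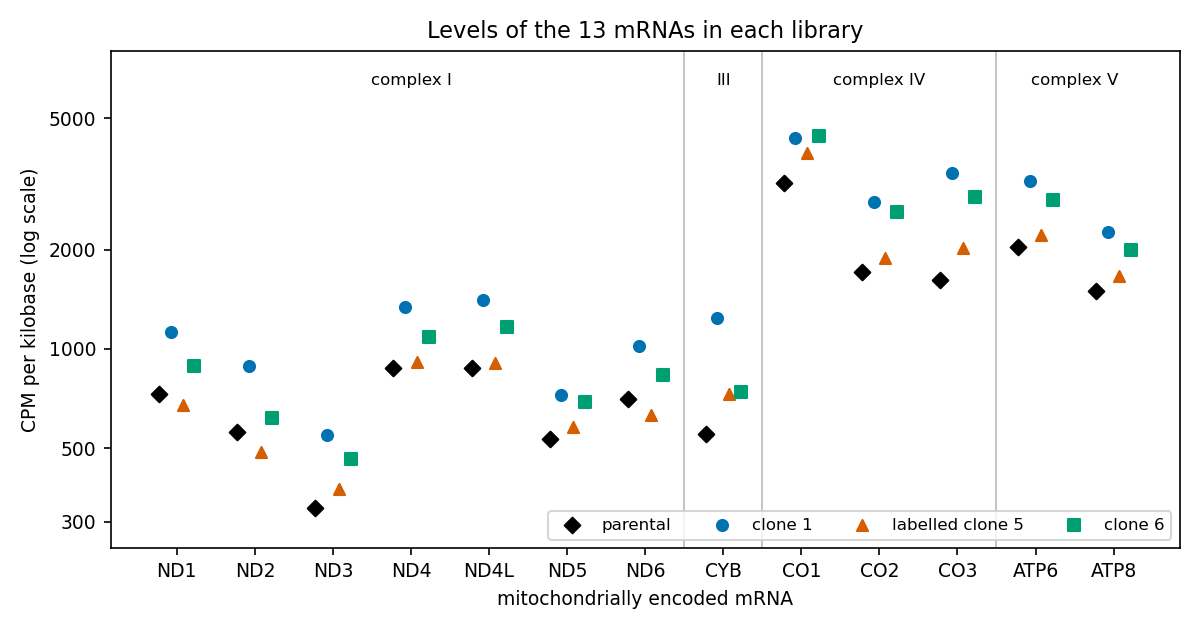
The level of the 13 mitochondrially encoded mRNAs in CPM per kilobase of gene length (y axis, log scale) is plotted for each library, grouped by respiratory complex (x axis). The parental library (black) is the lowest point for 10 of the 13 mRNAs, clone 1 is the highest for 12, and the mRNAs of complexes IV and V lie above those of complexes I and III.

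Within the counts on the 13 mRNAs, the mean log2 ratio of a share, clones to parental, spanned -0.23 for MT-ND2 to 0.32 for MT-CO3. MT-CO1 made up 35.4% of them in the parental library and 31.0%, 38.2% and 35.4% in the clones, so the parental share lay inside the range of the clones. MT-CO3 made up 9.11% in the parental library and 12.3%, 10.0% and 11.8% in the clones, at 11.4% ± 1.19 (SD, n = 3). The parental share of MT-CO3 was below all 3 clones, with a mean log2 ratio of 0.32 ± 0.16 (SD, n = 3), or 0.40 without the library labelled clone 5. The complex I mRNAs together went the other way, with 30.3% in the parental library and 29.1%, 26.6% and 27.0% in the clones. The parental shares of MT-ND1, MT-ND4, MT-ND5, MT-ND6 and MT-ATP8 were above those of all 3 clones, and that of MT-ND3 was below them by 0.04 on the log2 scale on average. MT-CYB made up 4.55% in the parental library and 6.52%, 5.28% and 4.41% in the clones, with clone 6 below the parental library. Shares of a total are tied to each other, and no test was made of them.

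**Figure D3:**
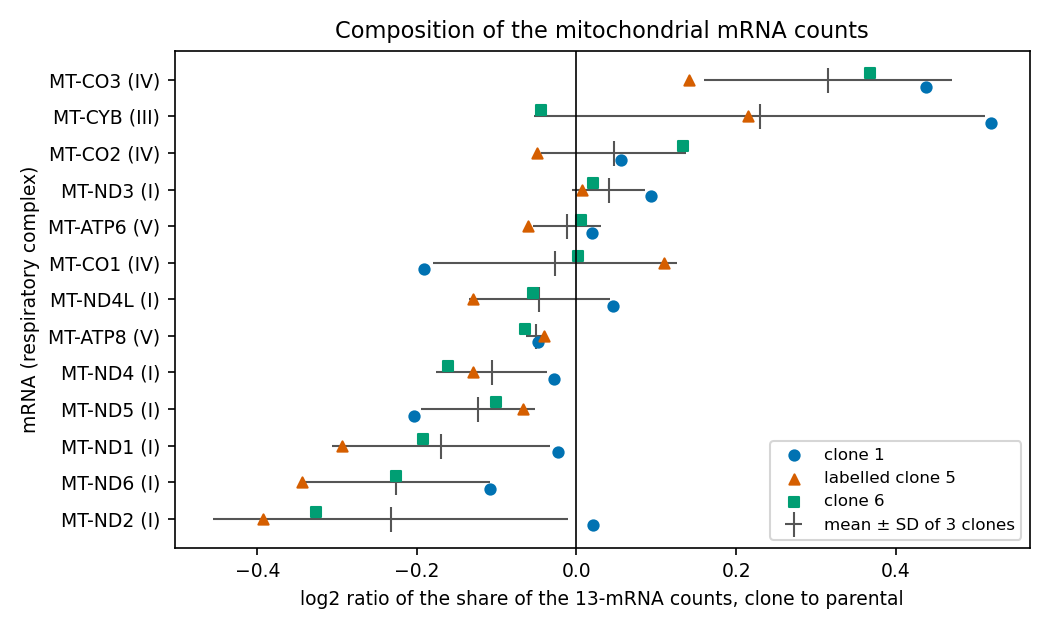
The log2 ratio of each mRNA's share of the 13-mRNA counts, clone to parental (x axis), is plotted for each mRNA (y axis) with the mean and SD of the 3 clones as a tick and a bar. MT-CO3 lies to the right of 0 in all 3 clones, MT-ND1, MT-ND4, MT-ND5, MT-ND6 and MT-ATP8 to the left in all 3, and MT-CYB has the widest spread.

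Neighbouring reading frames overlap at 3 places, where a read can belong to either gene. MT-ATP8 and MT-ATP6 share 46 bases, MT-ND4L and MT-ND4 share 7, and MT-ATP6 and MT-CO3 share 1. The overlap stands in capitals between 12 flanking bases on each side, on the coding strand of GRCh38, at chrMT:8515-8584, chrMT:10748-10778 and chrMT:9195-9219.
MT-ATP8 and MT-ATP6: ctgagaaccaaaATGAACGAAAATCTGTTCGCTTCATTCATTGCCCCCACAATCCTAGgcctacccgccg
MT-ND4L and MT-ND4: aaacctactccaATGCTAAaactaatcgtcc
MT-ATP6 and MT-CO3: cgacaacacataAtgacccaccaat
In the first, the start codon of MT-ATP6 opens the capitals and the stop codon of MT-ATP8 closes them. MT-ATP8 and MT-ATP6 lie on 1 mature mRNA, as do MT-ND4L and MT-ND4, and the counts of each pair moved together. The ratio of MT-ATP8 to MT-ATP6 counts was 0.224 in the parental library and 0.214, 0.227 and 0.213 in the clones. The ratio of MT-ND4L to MT-ND4 was 0.215 in the parental library and 0.226, 0.215 and 0.232 in the clones. Both parental ratios lay inside the clones' range, the second at its lower edge. MT-CO3, which is separated from MT-ATP6 by cleavage, had 0.913 counts for each count of MT-ATP6 in the parental library and 1.22, 1.05 and 1.17 in the clones, and here the parental ratio was below all 3. How reads in an overlap were assigned is not given in the sources used here.

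The 22 tRNA genes took 0.0174% of the counts in the parental library and 0.0237%, 0.0218% and 0.0321% in the clones. Each is 59 to 75 bases long, shorter than the reads of 150 bases, and mature tRNAs lack a poly(A) tail, so these counts need not stand for mature tRNA. Reads that span a tRNA gene and its neighbour are a possible part of them, which was not tested. The light-strand tRNA genes, 8 of the 22, held more of the tRNA counts (11402 of 15699 in the parental library) than the 14 on the other strand. With the strand setting of the counting not given, these counts may come from RNA of either strand. MT-TN alone held 44.8% of the tRNA counts in the parental library and 47.3%, 40.1% and 50.8% in the clones.

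The tRNA genes fell into abundant and scarce ones, whose highest library differed. Sequences are shown for 4 abundant genes, for MT-TT, which had the lowest p, and for MT-TL2 and MT-TW, which stand for the scarce genes with another order of the libraries. They are given 5′ to 3′ on the coding strand from the GENCODE release 29 transcripts on GRCh38 with the anticodon in capitals.
MT-TN: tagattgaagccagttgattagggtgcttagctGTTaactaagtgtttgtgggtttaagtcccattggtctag
MT-TC: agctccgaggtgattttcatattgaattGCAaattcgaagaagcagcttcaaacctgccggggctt
MT-TY: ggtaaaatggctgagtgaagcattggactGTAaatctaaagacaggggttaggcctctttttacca
MT-TP: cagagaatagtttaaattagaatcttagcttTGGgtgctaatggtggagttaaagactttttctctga
MT-TT: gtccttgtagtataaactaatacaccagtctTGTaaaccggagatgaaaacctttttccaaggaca
MT-TL2: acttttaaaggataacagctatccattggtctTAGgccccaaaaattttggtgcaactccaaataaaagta
MT-TW: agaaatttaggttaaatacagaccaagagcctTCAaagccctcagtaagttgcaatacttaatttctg
MT-TN (chrMT:5657-5729), MT-TC (chrMT:5761-5826) and MT-TY (chrMT:5826-5891) carry asparagine, cysteine and tyrosine and lie in a row on the light-strand transcript. MT-TP (chrMT:15956-16023) carries proline, MT-TT (chrMT:15888-15953) threonine, MT-TL2 (chrMT:12266-12336) leucine and MT-TW (chrMT:5512-5579) tryptophan.

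The 7 tRNA genes with a mean of at least 10 CPM, MT-TF, MT-TV, MT-TL1, MT-TN, MT-TC, MT-TY and MT-TP, held 93.3% of the tRNA counts in the parental library and 95.7%, 88.1% and 94.6% in the clones. MT-TN was at 77.9 CPM in the parental library and 119, 83.1 and 161 CPM in the clones. MT-TC was at 16.6 CPM and 26, 21.3 and 36.0 CPM. For both, clone 6 was highest and the parental library lowest, the latter as for 28.6% of all genes tested. The log2 fold changes of MT-TN and MT-TC were 0.64 (SE 0.44, edgeR adjusted p = 0.619) and 0.74 (SE 0.40, edgeR adjusted p = 0.549).

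MT-TP was at 17.9 CPM in the parental library and 29.2, 24.2 and 26.8 CPM in the clones, and MT-TY at 10.9 CPM and 20.6, 13.3 and 19.0 CPM. Clone 1 was highest for these, and the parental library lay below all 3 clones. MT-TL1, the leucine tRNA next to MT-ND1, was at 17.1 CPM and 24.6, 18.7 and 25.2 CPM. MT-TF and MT-TV, for phenylalanine and valine, did not separate the groups. MT-TF was at 10.4 CPM in the parental library and 13.5, 9.76 and 14.3 CPM in the clones, and MT-TV at 11.1 CPM and 8.30, 12.3 and 17.6 CPM. The sign of the MT-TV difference rested on clone 6, without which its log2 fold change of 0.20 became -0.11.

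Among the other 15 tRNA genes, the library labelled clone 5 was the highest for 12, whereas it was the highest for none of the 7 abundant tRNA genes and none of the 13 mRNAs. Their summed level was 11.7 CPM in the parental library and 10.8, 24.7 and 17.1 CPM in the clones. Clone 1, the highest for 12 of 13 mRNAs, was the lowest for 6 of these 15. The library labelled clone 5 also had the most genes detected, 31030 against 29059 in the parental library, 29865 in clone 1 and 29666 in clone 6. The share of all scarce genes that were highest in it was not worked out, so these counts have no background beside them. MT-TL2 was at 3.61 CPM in the parental library and 2.46, 8.57 and 5.83 CPM in the clones. Exact counting intervals put its log2 ratio at -0.79 to -0.32 in clone 1 and at 1.06 to 1.44 in the library labelled clone 5, so the clones differed from the parental library in opposite directions by more than counting error.

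The same order held for MT-TH (histidine), MT-TW, MT-TG (glycine), MT-TA (alanine) and MT-TR (arginine). MT-TH was at 1.40 CPM in the parental library and 1.10, 3.24 and 2.03 CPM in the clones, MT-TW at 1.29 CPM and 0.872, 3.07 and 1.87 CPM, and MT-TG at 1.25 CPM and 0.837, 2.68 and 1.71 CPM. MT-TA was at 1.01 CPM and 0.846, 1.59 and 1.22 CPM, and MT-TR, with 14, 6, 25 and 16 counts, was close to what the depth can resolve. In all of them clone 1 was lowest and the library labelled clone 5 highest. Of the 6 tRNA genes that directly follow an mRNA with an incomplete stop codon, all 6 were highest in the library labelled clone 5 and 4 were lowest in clone 1, while the mRNAs before them were all highest in clone 1. All 6 are among the 15 scarce tRNA genes. Of those 15, 12 were highest in the library labelled clone 5 and 6 were lowest in clone 1. The grouping by position was made after the values had been seen. Over the 21 tRNAs that could be fitted without that library, all but MT-TK, the median log2 fold change was 0.39 without it and 0.58 with it.

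**Figure D4:**
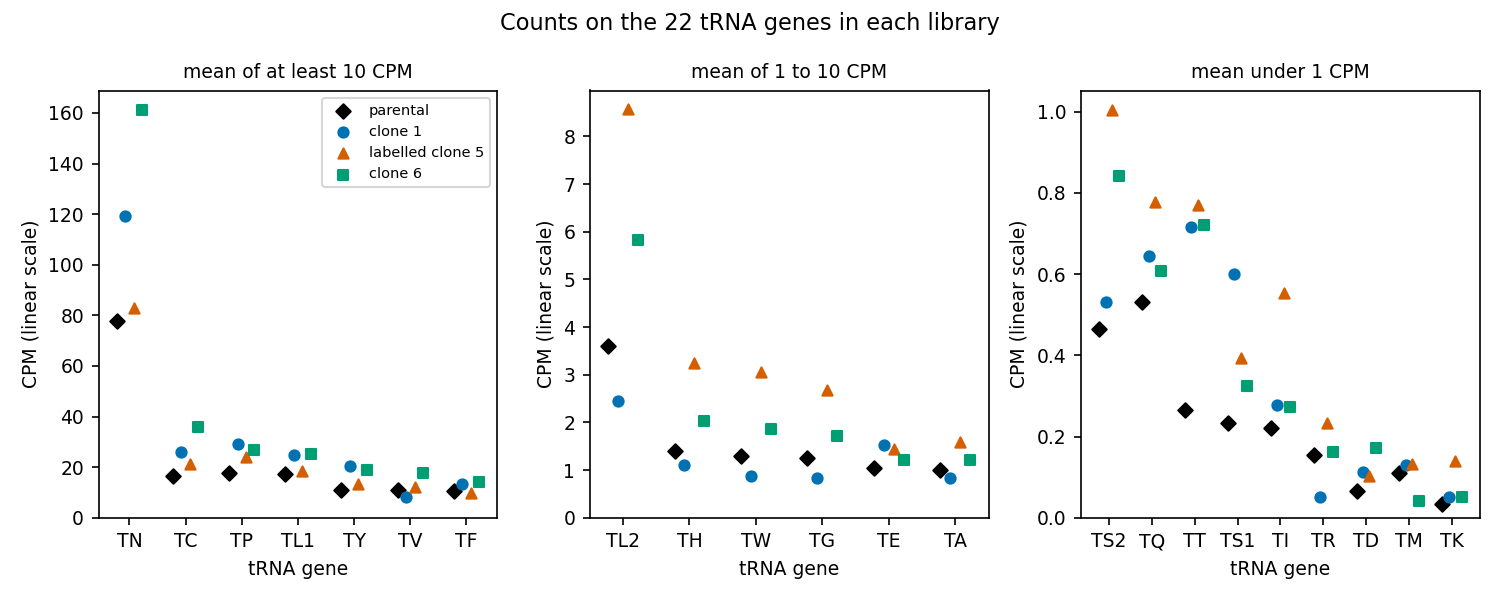
The counts on the 22 tRNA genes are plotted in CPM (y axes, linear and scaled separately in each panel) for each library, split by the mean level over the 4 libraries (x axes give the gene). MT-TN stands above the other abundant genes, with clone 6 highest at 161 CPM, and in the middle panel the library labelled clone 5 (orange) is the highest point for MT-TL2, MT-TH, MT-TW, MT-TG and MT-TA.

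MT-TT had 24 counts in the parental library and 82, 82 and 71 in the clones, or 0.266 CPM and 0.715, 0.769 and 0.720 CPM. The clones nearly coincided and lay above the parental library. Its log2 fold change was 1.46 (SE 0.59, edgeR adjusted p = 0.471, 95% interval -0.08 to 3.01), the largest of the 35. MT-TS2, MT-TQ and MT-TE, for serine, glutamine and glutamate, were also above the parental level in all 3 clones. MT-TQ had 48 counts in the parental library and 74, 83 and 60 in the clones, and MT-TE 95 and 174, 153 and 119. MT-TS2 was at 0.465 CPM in the parental library and 0.532, 1.00 and 0.842 CPM in the clones.

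The last 5 tRNA genes held at most 69 counts in any library. MT-TS1 (serine) had 21 counts in the parental library and 69, 42 and 32 in the clones, MT-TI (isoleucine) 20 and 32, 59 and 27, and MT-TD (aspartate) 6 and 13, 11 and 17. MT-TM (methionine) had 10 counts in the parental library and 15, 14 and 4 in the clones, and MT-TK (lysine) 3 and 6, 15 and 5. At this depth the exact intervals of most of their ratios included 0, and for MT-TK in the library labelled clone 5 the log2 ratio of 2.08 had an interval from 0.26 to 4.51. The fitted sign for MT-TM changed to 0.24 without clone 6, and that for MT-TR to 0.36 without clone 1.

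Nuclear copies of mitochondrial genes can take reads from the mitochondrial ones. The 7 copies examined lie side by side on chromosome 1 of GRCh38, from 629062 to 634922, and were 96.5% to 98.6% identical to their mitochondrial gene over the aligned length. MTATP6P1 (chr1:633696-634376) had 10 differences from MT-ATP6 in 681 bases, and its longest identical run was 141 bases. The longest identical run was 266 bases for MTND2P28, 245 for MTCO1P12 and 158 for MTND1P23, longer than a read, and 62 to 124 bases for the remaining 3 copies. MTATP6P1 was at 37.1 CPM in the parental library and 65.1, 69.4 and 62.7 CPM in the clones, that is 2.67%, 2.97%, 4.60% and 3.25% of the MT-ATP6 counts. The parental library was below each clone, and the fitted log2 fold change was 0.83 (SE 0.26, edgeR adjusted p = 0.379). MTCO1P12 was at 7.77 CPM in the parental library and 12.8, 11.4 and 12.8 CPM in the clones, at most 0.190% of the MT-CO1 counts.

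The other 5 copies, MTND1P23, MTND2P28, MTCO2P12, MTATP8P1 and MTCO3P12, had at most 198 counts in a library, and MTATP8P1 had a log2 fold change of -0.10 (SE 0.73). Of 406 nuclear copies in the files, 9 passed the filter and none met the criterion, against 9.58% of all genes tested. Of these 9, 4 were higher in all 3 clones and 2 lower, against 28.6% and 30.5% of all genes tested. Their median log2 fold change was 0.55. Counts of copies and of mitochondrial genes cannot be separated for reads within an identical run. Adding the copies to the mitochondrial counts left the mean log2 ratio of the share at 0.44.

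The nuclear genes that copy, transcribe, process and degrade mitochondrial nucleic acids had median log2 fold changes below 0, while that of the mitochondrial mRNAs was above 0. The median over all genes tested was 0.10. Over all genes with at least 10 CPM in either library of a pair, the median log2 ratio to the parental library was -0.050, -0.13 and -0.11 in the clones. Of 20 genes for transcription and replication, 0 had an adjusted p under 0.05 by edgeR and 3 by DESeq2, which passed 6.18% of all genes with an adjusted value. At an unadjusted edgeR p under 0.05 there were 3, against 11.5% of all genes tested. By the criterion 1 was higher and 2 lower, which is 15% against 9.58% of all genes tested. The median log2 fold change of the 20 genes was -0.31, with 5 higher and 10 lower in all 3 clones, where 28.6% and 30.5% of all genes tested were. With lists this small these counts are descriptions. TWNK, the replicative helicase of mitochondrial DNA, was at 82.4 CPM in the parental library and 33.2, 18.5 and 20.0 CPM in the clones (log2 fold change -1.79, SE 0.43, edgeR adjusted p = 0.327). TFB2M, a transcription initiation factor, was at 42.3 CPM and 19.1, 13.5 and 16.2 CPM (log2 fold change -1.38, SE 0.34). Both were lower in all 3 clones by more than the spread between them, and both were named for a small p.

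DNA2, a nuclease and helicase that works in both the nucleus and mitochondria, was the higher one, at 4.86 CPM in the parental library and 13.9, 11 and 13.1 CPM in the clones (log2 fold change 1.38, SE 0.38). DNA2 no longer met the criterion without the library labelled clone 5 or without clone 6. RNASEH1, which removes RNA from RNA-DNA hybrids, was at 50.8 CPM and 35.1, 27.9 and 25.9 CPM and did not meet the criterion. The mitochondrial RNA polymerase POLRMT was at 79.3 CPM in the parental library and 68.7, 45.2 and 46.7 CPM in the clones (log2 fold change -0.57, SE 0.36, edgeR adjusted p = 0.568). TFAM, which packages mitochondrial DNA and activates its promoters, was at 69.9 CPM and 69.8, 43.5 and 51.3 CPM (log2 fold change -0.35, SE 0.36). Clone 1 matched the parental library for TFAM, whereas POLRMT lay below it in all 3 clones.

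Of 23 genes for the processing and modification of mitochondrial RNA, 0 had an adjusted p under 0.05 by edgeR and 1 by DESeq2. The latter passed 6.18% of all genes with an adjusted value. At an unadjusted edgeR p under 0.05 there were 3, against 11.5% of all genes tested. By the criterion 2 were lower with none higher, or 8.7%, no more than the 9.58% of all genes tested. The median log2 fold change was -0.52, and 17 were lower and 2 higher in all 3 clones, against 30.5% and 28.6% of all genes tested. PUS1, a pseudouridine synthase of tRNAs, was at 92.7 CPM in the parental library and 33.2, 36.7 and 30.4 CPM in the clones (log2 fold change -1.47, SE 0.27, edgeR adjusted p = 0.275). MRM1, a methyltransferase of mitochondrial ribosomal RNA, was at 13.8 CPM and 6.25, 3.67 and 4.92 CPM (log2 fold change -1.48, SE 0.49). The parental library lay above all 3 clones for both genes, as for 30.5% of all genes tested, and both were named for a small p. MRM1 no longer met the criterion without the library labelled clone 5 or without clone 6. CDK5RAP1 and MTO1, which modify mitochondrial tRNAs, had log2 fold changes of -0.86 (SE 0.33) and -0.54 (SE 0.29) and did not meet the criterion.

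Of 17 genes for the stability and decay of mitochondrial RNA, 0 had an adjusted p under 0.05 by edgeR and 2 by DESeq2, 5 had an unadjusted edgeR p under 0.05, and 3 were lower by the criterion with none higher, or 17.6% against 9.58% of all genes tested in both directions. The unadjusted edgeR p was passed by 11.5% of all genes tested, and DESeq2's adjusted p by 6.18% of those with an adjusted value. The median log2 fold change was -0.51, and 11 were lower and 3 higher in all 3 clones, against 30.5% and 28.6% of all genes tested. SUPV3L1, the helicase of the mitochondrial degradosome, was at 63.3 CPM in the parental library and 21.5, 17.3 and 20.9 CPM in the clones (log2 fold change -1.67, SE 0.30, edgeR adjusted p = 0.275). PNPT1, the exonuclease of that complex, was at 87.0 CPM and 34.9, 24.6 and 27.9 CPM (log2 fold change -1.58, SE 0.32, edgeR adjusted p = 0.306). Both partners of the degradosome were at less than their parental level in every clone, with clones close together, but both were named for a small p.

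REXO2, which degrades the short RNA fragments left by the degradosome, was at 104 CPM in the parental library and 59.9, 45.6 and 45.8 CPM in the clones (log2 fold change -1.04, SE 0.30), and it no longer met the criterion without the library labelled clone 5 or without clone 6. LRPPRC, which binds and protects mitochondrial mRNAs, was at 241 CPM and 135, 110.3 and 157 CPM (log2 fold change -0.85, SE 0.33, edgeR adjusted p = 0.421). PTCD2, which acts in the processing of the cytochrome b transcript, was at 47.9 CPM and 27.7, 19.6 and 24.7 CPM (log2 fold change -0.995, SE 0.33). LRPPRC and PTCD2 stayed short of the fold that the criterion asks for, except that PTCD2 met it without clone 1. Whether the levels of these genes bear on the mitochondrial RNAs was not tested.

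**Figure D5:**
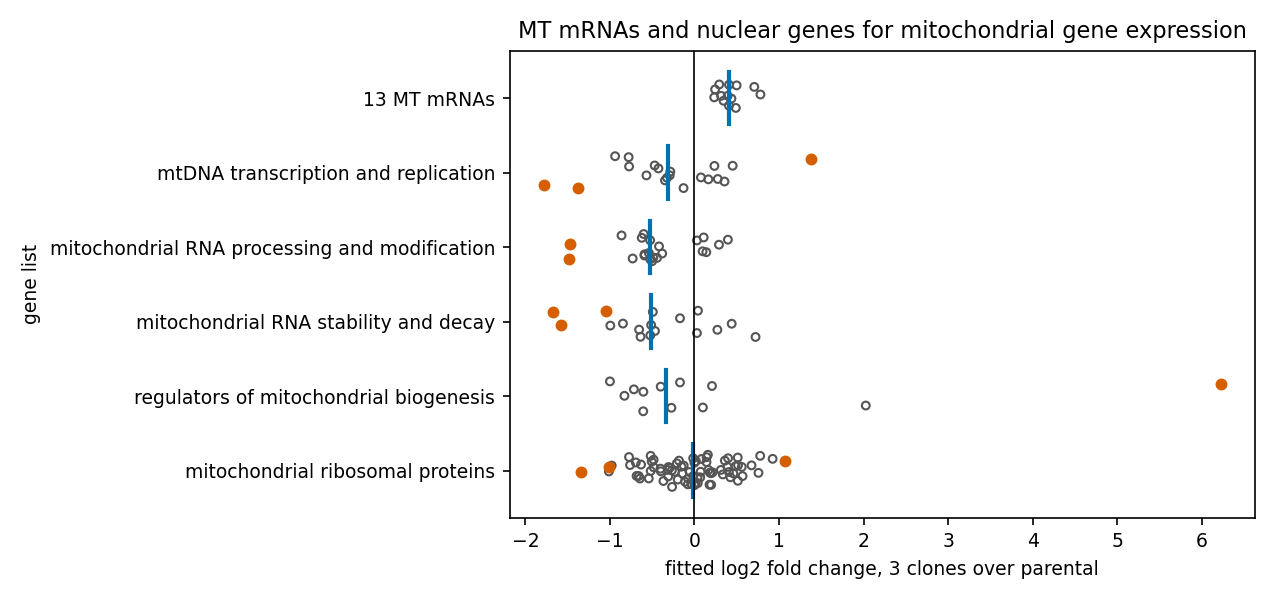
The fitted log2 fold change of the 3 clones over the parental library (x axis) is plotted for the 13 mitochondrially encoded (MT) mRNAs and for the members of 5 lists of nuclear genes (y axis), with genes meeting the criterion filled and the median of each list as a bar. The mRNAs all lie above 0 (median 0.41) and the medians of the transcription, processing, decay and regulator lists lie between -0.52 and -0.31. The point at 6.23 is ESRRG, with 0 counts in the parental library.

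Of 12 regulators of mitochondrial biogenesis, 0 had an adjusted p under 0.05 by edgeR or DESeq2. At an unadjusted edgeR p under 0.05 there was 1, against 11.5% of all genes tested. By the criterion there was 1, or 8.33% against 9.58%. The median log2 fold change was -0.34, with 2 higher and 6 lower in all 3 clones, against 28.6% and 30.5% of all genes tested. The coactivator PPARGC1A (PGC-1α) split the clones, at 11.3 CPM in the parental library and 10.1, 45.1 and 83.3 CPM in the clones. Its log2 fold change of 2.03 (SE 1.09, edgeR adjusted p = 0.568) therefore describes 2 of the 3 clones, and it met the criterion without clone 1. PPARGC1B was at 13 CPM in the parental library and 5.72, 5.14 and 8.64 CPM in the clones. The transcription factors YY1 and TFE3 had log2 fold changes of -0.72 (SE 0.32) and -0.61 (SE 0.29). The gene that met the criterion was the nuclear receptor ESRRG, named after its values were seen, with 0 counts in the parental library and 9, 15 and 5 in the clones, at least 2.71-fold higher in mean CPM against a floor of 3 counts. ESRRG did not meet the criterion by DESeq2, without clone 1 or without clone 6, and without the library labelled clone 5 it was not kept by the filter and the bound was 1.95-fold.

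Of 77 mitochondrial ribosomal protein genes, 0 had an adjusted p under 0.05 by edgeR or DESeq2. At an unadjusted edgeR p under 0.05 there were 5, against 11.5% of all genes tested. By the criterion 1 was higher and 2 lower, or 3.9% against 9.58% of all genes tested. The list's median log2 fold change of -0.015 turned to 0.082 under upper quartile scaling, so no direction is given for it. In all 3 clones 20 were higher and 28 lower, against 28.6% and 30.5% of all genes tested. MRPL58, a peptide release protein of the ribosome, was at 47.9 CPM in the parental library and 21.8, 14.3 and 20.5 CPM in the clones (log2 fold change -1.35, SE 0.37). MRPS18B was at 85.8 CPM and 44.0, 44.6 and 39.5 CPM (log2 fold change -1.01, SE 0.26), and MRPS10 had a log2 fold change of -0.98 (SE 0.27). MRPL36 was at 27.3 CPM and 68.9, 43.7 and 59.9 CPM (log2 fold change 1.07, SE 0.35). The parental library lay outside the range of the clones for each of these, as for the shares of all genes just given. They were named for a small p, so this is no separate result. MRPL36 no longer met the criterion without clone 1 or without clone 6, nor MRPS18B without clone 6 or by DESeq2.

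RNAs without a poly(A) tail and RNAs kept in the nucleus were listed as RNAs other than polyadenylated cytoplasmic mRNA. Most tested genes of the first kind are replication-dependent histone genes, which make mRNAs. That list is therefore not a measure of RNA other than mRNA. Of 84 genes of the first kind, 49 passed the filter and 0 had an adjusted p under 0.05 by edgeR or DESeq2. At an unadjusted edgeR p under 0.05 there was 1, against 11.5% of all genes tested. By the criterion there was also 1, or 2.04% against 9.58% of all genes tested. In all 3 clones 28 were higher and 2 lower, against 28.6% and 30.5% of all genes tested, with a median log2 fold change of 1.27. Outside the histone genes, RN7SL2, RNU5A-1 and SNORD3A had log2 fold changes of -0.10, 1.15 and 1.55. Their unadjusted edgeR p was 0.78, 0.61 and 0.17. The summed level of the list was 105 CPM in the parental library and 133, 138 and 126 CPM in the clones. All 3 clones were above the parental library in this sum, as they were in the summed mitochondrial counts, and the part of this difference in the mitochondrial values was not tested. Among replication-dependent histone genes, HIST1H2BH was at 0.443 CPM in the parental library and 2.45, 0.872 and 6.12 CPM in the clones, and HIST1H3H at 0.885 CPM and 2.49, 3.64 and 1.47 CPM. HIST1H2AI and HIST1H3G had log2 fold changes of 1.70 (SE 0.83) and 2.69 (SE 1.35). HIST1H3F, named after its values were seen, met the criterion with 0 counts in the parental library and 46, 8 and 10 in the clones, at least 5.80-fold higher in mean CPM against a floor of 3 counts. Without clone 1 the bound was 2.66-fold and the gene was not kept by the filter.

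The nuclear-retained RNA MALAT1 was at 187 CPM in the parental library and 212, 245 and 209 CPM in the clones (log2 fold change 0.25, SE 0.29). KCNQ1OT1 was at 1.5 CPM and 4.57, 3.69 and 3.86 CPM (log2 fold change 1.42, SE 0.49, edgeR adjusted p = 0.428). It was the 1 of 4 such genes that met the criterion, or 25% against 9.58% of all genes tested. It did not meet the criterion without the library labelled clone 5 or without clone 6. NEAT1 and SNHG14 did not separate the groups, and 0 of the 4 had an adjusted p under 0.05 by edgeR or DESeq2.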

How the data were processed

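RNA from parental SUM159 cells (1 library) and NOS2KO clones 1, 5 and 6 (1 library each) was poly(A)-enriched and sequenced as paired ends of 150 bases. The values the authors deposited are unnormalized read counts for each gene. The submitters' processing notes name bcl2fastq 2.17, Trimmomatic 0.36, STAR 2.5.2b, featureCounts of Subread 1.5.2, DESeq2 and GRCh38. The strand, multi-mapping and overlap settings are not given in the sources used here, so reads of opposite or overlapping genes and of nuclear copies may be assigned to either. Symbols, coordinates and transcripts came from GENCODE release 29 on GRCh38, and sequences were read from it with Biopython 1.88.

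The deposited counts were fitted in R 4.3.3 with edgeR 4.0.16 (filterByExpr, TMM, glmQLFit, glmQLFTest) on all genes, with Benjamini-Hochberg adjustment over the 22511 kept. The residual degrees of freedom were 2 (prior 2.75), all from the clones, and the single parental library was assumed to vary like them. Nothing says that clones were cultured in replicate, so p-values measure the spread between these samples. CPM is relative to the TMM-scaled library size, and CPM per kilobase divides it by the exon length in the files. Clone ratios carry exact Clopper-Pearson 95% intervals. Intervals and the floor of 3 counts cover counting error only, as reads carried no molecular identifiers. The adjusted p threshold was 0.05. Nuclear copies were aligned globally to their gene without end penalties. Scripts were tested on simulated data. Figures used matplotlib 3.10.9.

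The members and the gene lists were chosen with earlier results of these data known. All chromosome MT rows are named. In other lists the up to 4 members with the smallest edgeR p and at least 1 CPM in a library are named, plus TFAM, POLRMT, LRPPRC, the 7 nuclear copies on chromosome 1 and NOS2. Alternatives were RLE, upper quartile, library size and nuclear-gene scaling, no filter or 1 CPM, DESeq2 1.42.0, robust and bias-adjusted estimation, a prior count of 2, other denominators of the share, and each clone left out or alone.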

Additional observations from a re-analysis of the deposited data

How the results depend on the processing

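No replicated fit called a mitochondrially encoded gene, and the lowest adjusted p among them ranged from 0.279 without clone 1 to 0.805 without clone 6. All 13 mRNAs stayed higher in each fit except without clone 1, where 12 did. The median of the 13 mRNAs was 0.12 with the library labelled clone 5 alone, and 0.28 to 0.52 with 1 clone left out. Upper quartile scaling moved the median of all genes to 0.20 and that of the mRNAs to 0.51, and fitting without a filter moved the former to 0.31. With 1 clone left out, the log2 fold change of MT-TV ranged from -0.11 (without clone 6) to 0.43, of MT-TM from -0.35 to 0.24 (without clone 6), of MT-ND2 from -0.020 (without clone 1) to 0.45, and of MT-TR from -0.51 to 0.36 (without clone 1). MT-TR was 0.069 under upper quartile scaling. The mean log2 ratio of the MT-CO1 share within the mRNAs, -0.026, ranged from -0.095 to 0.056 (without clone 1). The median of the ribosomal proteins ranged from -0.19 to 0.079 (without the library labelled clone 5), and was 0.0060 under RLE scaling, 0.0060 by DESeq2 and 0.082 under upper quartile scaling. With 1 clone left out, genes meeting the criterion ranged from 2 to 3 for transcription, 1 to 2 for processing, 2 to 4 for decay, 0 to 2 for regulators, 1 to 4 for ribosomal proteins, 0 to 2 for RNAs without a poly(A) tail and 0 to 1 for nuclear-retained RNAs. By DESeq2 they were 0 for regulators and 4 for RNAs without a poly(A) tail. Over all genes, an adjusted p under 0.05 was met by 1 gene by edgeR, 6 without a filter, 5 with bias-adjusted estimation and 1095 by DESeq2. The causes were not tested. No paired analysis was possible because the parental group has 1 library without a clone number. With 1 parental library, no test can separate its own variation from the difference between the groups.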
